A study of Mus musculus with 20 samples.

Results

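The loci examined are those of 4 genes used as markers of alternatively activated macrophages: Arg1, Mrc1, Chil3 and Retnla. Members were all enhancers of the deposited count table whose midpoint lay in an mm39 window around one of these genes: chr10:24650000-24950000 for Arg1, chr2:14050000-14400000 for Mrc1, chr3:105900000-106200000 for Chil3 and chr16:48550000-48800000 for Retnla. The rule used positions and no measured value. It found 3 of the 11222 listed enhancers, all 3 in the Arg1 window, and none in the other 3 windows. The study counted capped RNA 5′ ends by CAGE (cap analysis of gene expression, here its amplification-free variant nAnT-iCAGE), so that a tag count at an enhancer measures its transcription. The cells were macrophages grown with M-CSF from the marrow of C57BL/6 mice, and no group carried a genetic change. They were left unstimulated (0 h), or received IFN-γ, CpG DNA or both for 3, 9 or 15 h, which gave 10 groups of 2 biological replicates each and 20 libraries. Unstimulated cells were taken at 0 h only, so stimulus and time in culture cannot be told apart in any comparison with them. The labels' growth protocol also mentions IL-4 and IL-10, and whether any CAGE library received them is not stated. Macrophage identity was not checked against marker genes here, because the tables hold enhancers and no genes.

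Alternative activation is the macrophage state brought about by IL-4 and IL-13 through the transcription factor STAT6. Arg1 encodes arginase 1, which turns arginine into ornithine and urea; Mrc1 encodes the mannose receptor CD206; Chil3 and Retnla encode the secreted proteins Ym1 and RELMα. IFN-γ and unmethylated CpG DNA, which is sensed by TLR9 in endosomes and signals through MyD88 and NF-κB, belong to the opposite, classical form of activation. Arg1 differs from the other marker genes in that Toll-like receptor ligands can also induce it in macrophages, independently of STAT6. Active enhancers are transcribed in both directions into short capped RNAs, which is how CAGE finds them.

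The labels' treatment protocol gives a stimulation longer than that of any CAGE library, and whether it applies to these libraries is not stated. The CpG agent it names is the oligonucleotide 1826, shown because CpG is the stimulus under which the Arg1 window held most tags. Its 20 bases hold 2 CG pairs, given in capitals.
ODN-1826: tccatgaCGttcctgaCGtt

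The windows of Mrc1, Chil3 and Retnla held no enhancer of the table. The nearest listed enhancer lay 236.6 kb beyond the Mrc1 window, 82.1 kb beyond the Chil3 window and 811.5 kb beyond the Retnla window. Empty stretches were common: of consecutive stretches of the same sizes between the first and last listed enhancer of each chromosome, 63.2% of those of 350 kb, 66.2% of those of 300 kb and 69.7% of those of 250 kb held no enhancer. An empty window is therefore the more frequent case. It says nothing of transcription below the level at which a region entered the list, and promoter tags of the 4 genes were not analysed here. By gene order on the assembly GRCm38.p6, Retnla lies between Retnlb and Retnlg, Chil3 between Chia1 and Chil4, and Mrc1 between Tmem236 and Slc39a12.

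The 3 enhancers of the Arg1 window are called A, B and C here by position. Enhancer A was listed at chr10:24787211-24787508 (297 bases), B at chr10:24806157-24806485 (328 bases) and C at chr10:24807464-24807682 (218 bases) on mm39. B and C formed a close pair with midpoints 1252 bases apart, and 29.8% of all listed enhancers had a neighbour at least as close. A lay 18961 bases from B, against a median distance to the nearest enhancer of 3468 bases over the table. By gene order on GRCm38.p6, Arg1 lies between Med23, a subunit of the Mediator complex, and Akap7, an anchoring protein of protein kinase A. Which of these genes an enhancer acts on, and whether it lies in an exon, an intron or between genes, was not determined here. The sequence of the 3 enhancers is not printed, since no genome of the build was used.

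All 3 were weakly transcribed. Over the 20 libraries A and B had 56 tags each, more than 84.0% of all listed enhancers, and C had 45 tags, more than 78.6%. Between 12879 and 29794 tags of a library fell in enhancers. Levels are in RPM, tags scaled to a common size of whole library; with 12776280 to 13855472 tags in whole libraries, a single tag was worth 0.0722 to 0.0783 RPM. The highest count of a member in any library was 11 tags. Differences of a few tags are within counting error at this depth, and intervals given below cover counting error only.

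Enhancer A had 1 tag at baseline and was highest after 15 h of CpG. The 2 unstimulated libraries had 0 and 1 tags, a level of 0.0372 ± 0.0526 RPM (mean ± SD, n = 2 here and below; exact 95% counting interval 0.00093 to 0.204). Such a baseline was common in the table: 48.0% of all listed enhancers had as few tags or fewer in these 2 libraries. Under CpG the libraries had 4 and 1 tags at 3 h, 8 and 3 at 9 h, and 8 and 8 at 15 h, with means of 0.188 ± 0.157, 0.409 ± 0.264 and 0.621 ± 0.0080 RPM. All 6 CpG libraries held at least 1 tag, and from 9 h on each held more than either unstimulated library. Under IFN-γ alone the counts were 0 and 1 tags at 3 h, 4 and 0 at 9 h, and 1 and 1 at 15 h. Their highest mean was 0.144 ± 0.204 RPM at 9 h, which came from 1 of the 2 libraries. With both stimuli they were 0 and 1 tags at 3 h, 3 and 2 at 9 h, and 4 and 6 at 15 h, or 0.0370 ± 0.0523, 0.190 ± 0.0530 and 0.381 ± 0.122 RPM. At 3 h the cells with both stimuli thus read as unstimulated cells did, and by 15 h both of their libraries lay above the unstimulated ones and below those of CpG alone.

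Enhancer B had the same low baseline as A, with 0 and 1 tags in the unstimulated libraries (0.0372 ± 0.0526 RPM), and high counts in 2 conditions. Under CpG it had 3 and 1 tags at 3 h, 5 and 3 at 9 h, and 6 and 9 at 15 h, with means of 0.150 ± 0.104, 0.298 ± 0.106 and 0.583 ± 0.172 RPM. Under IFN-γ alone it had 1 and 0 tags at 3 h, 5 and 8 at 9 h, and 2 and 0 at 15 h, with means of 0.0378 ± 0.0534, 0.471 ± 0.156 and 0.0756 ± 0.107 RPM. The IFN-γ values were high at 9 h only, and both 9 h libraries lay above all 4 of the earlier and later IFN-γ libraries. With both stimuli B had 3 and 1, 2 and 1, and 2 and 3 tags at 3, 9 and 15 h, and its mean stayed between 0.114 ± 0.0532 and 0.191 ± 0.0611 RPM. At 9 h both of those libraries lay below both libraries of each single stimulus.

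Enhancer C, the neighbour of B, had the opposite baseline. The 2 unstimulated libraries held 5 and 4 tags, 0.330 ± 0.0452 RPM, and 90.3% of all listed enhancers had as few tags or fewer in these 2 libraries. Under IFN-γ it had 0 and 1 tags at 3 h, 4 and 11 at 9 h, and 2 and 1 at 15 h, with means of 0.0385 ± 0.0544, 0.544 ± 0.361 and 0.113 ± 0.0540 RPM. Under CpG it had 2 and 1, 0 and 1, and 4 and 1 tags, and with both stimuli 2 and 2, 2 and 0, and 0 and 2 tags, in the order of time. Of the 9 stimulated groups, IFN-γ at 9 h was the single one whose mean lay above that of unstimulated cells, and 1 library, with 11 tags, carried most of it. The means of the CpG groups ran from 0.0371 ± 0.0525 RPM at 9 h to 0.193 ± 0.162 RPM at 15 h, and those with both stimuli from 0.0757 ± 0.107 RPM at 9 h to 0.146 ± 0.0024 RPM at 3 h.

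**Figure D1:**
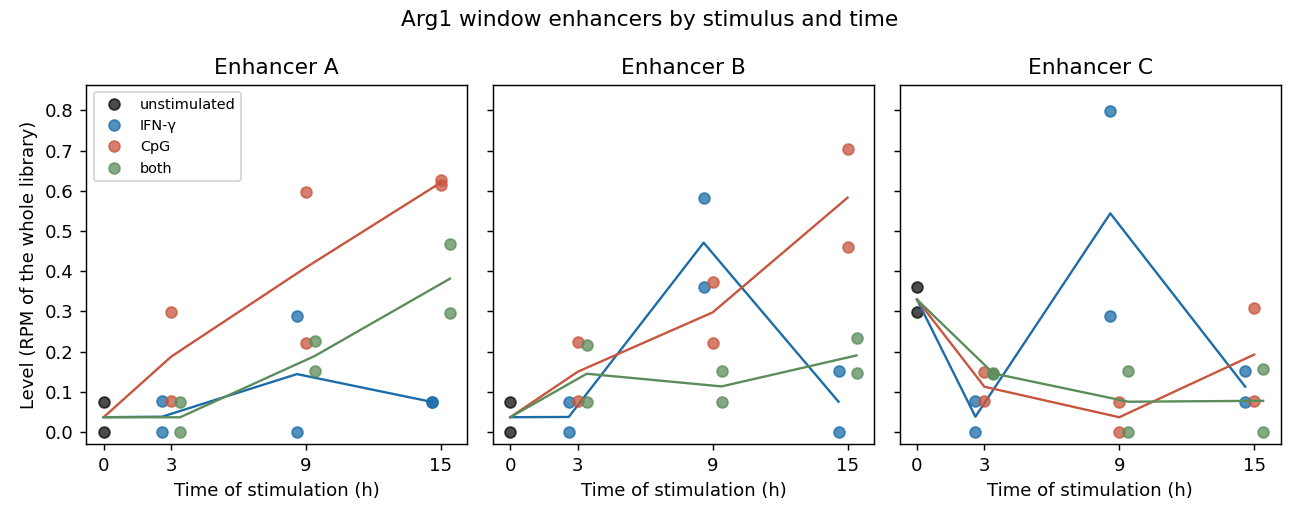
Level of enhancers A, B and C (y axis, RPM of the whole library) against time of stimulation (x axis, hours), with 1 point per library, lines through the means of the 2 libraries, and small sideways shifts to separate the stimuli. A is highest after CpG for 15 h (0.621 RPM), B peaks under IFN-γ at 9 h (0.471 RPM) and under CpG at 15 h (0.583 RPM), and C starts at 0.330 RPM and exceeds that mean only under IFN-γ at 9 h.

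Summed over the 3 enhancers, the Arg1 window held 11 tags in unstimulated cells, 0.404 ± 0.060 RPM. The sum was highest after CpG for 15 h, with 18 and 18 tags (1.40 ± 0.018 RPM), and next after IFN-γ for 9 h, with 13 and 19 tags (1.16 ± 0.313 RPM). Below these followed CpG at 9 h (0.744 ± 0.317 RPM), both stimuli at 15 h (0.650 ± 0.294 RPM), CpG at 3 h (0.451 ± 0.313 RPM) and then unstimulated cells. Both stimuli at 9 h (0.379 ± 0.213 RPM) and 3 h (0.328 ± 0.0462 RPM), IFN-γ at 15 h (0.264 ± 0.162 RPM) and IFN-γ at 3 h (0.115 ± 0.0554 RPM) came last. In this order the libraries of every pair of neighbouring groups overlapped, except the first pair, whose nearest libraries lay at 1.383 and 1.380 RPM. The ratio of RPM to unstimulated cells was 3.46 after CpG for 15 h (exact 95% counting interval 1.72 to 7.54), 2.87 after IFN-γ for 9 h (1.41 to 6.31) and 0.283 after IFN-γ for 3 h (0.0508 to 1.07). These sums are a description and were not tested. On the scale of the enhancer tags (TMM) in place of whole-library totals, the sum after both stimuli for 9 h lay above that of unstimulated cells instead of below it, and the direction of the other 8 groups stayed. The size depended on the scale too: for IFN-γ at 3 h the log2 ratio was -1.82 with whole-library totals and -1.31 with TMM.

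The share of each enhancer in these tags differed between conditions, as a description that was not tested. C held 9 of the 11 tags of unstimulated cells, 81.8% (95% Clopper-Pearson interval 48.2% to 97.7%). Over the 3 times it held 19 of 42 tags under IFN-γ, 45.2% (29.8% to 61.3%), 9 of 68 under CpG, 13.2% (6.23% to 23.6%), and 8 of 36 with both, 22.2% (10.1% to 39.2%). A held 16.7% of the tags under IFN-γ (6.97% to 31.4%) and 47.1% under CpG (34.8% to 59.6%). B held 38.1% (23.6% to 54.4%) and 39.7% (28.0% to 52.3%). The interval of the share of C in unstimulated cells meets neither that under CpG nor that with both stimuli, and it meets that under IFN-γ. These intervals pool the tags of several libraries and leave out the spread between libraries, so whether they meet is no test. Under IFN-γ, 32 of the 42 tags and 15 of the 19 of C came from 9 h, and 1 library gave 11 of these 15. Across the 20 libraries, log2 levels of A and B had a Pearson correlation of 0.62, B and C of 0.33, and A and C of -0.22. These correlations describe libraries that share groups and depth, and the close pair B and C did not have the highest of the 3.

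**Figure D2:**
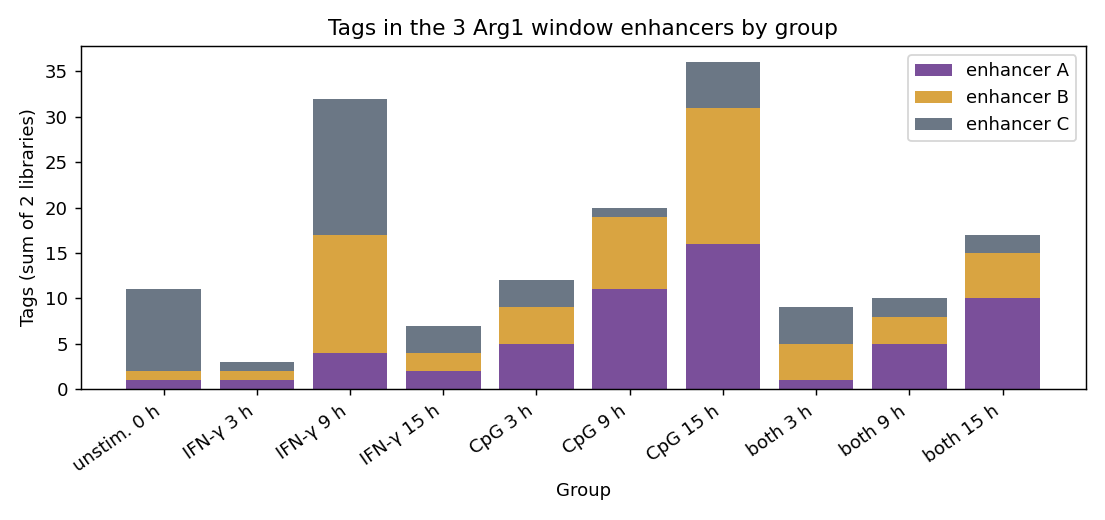
Tags of enhancers A, B and C stacked for each group (y axis, sum of the 2 libraries; x axis, stimulus and time). C makes up 9 of 11 tags in unstimulated cells, B and C make up most of the 32 tags after IFN-γ for 9 h, and A and B most of the 36 tags after CpG for 15 h.

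Differences were tested with edgeR's quasi-likelihood test over all 2792 enhancers with enough tags, with p-values adjusted by Benjamini-Hochberg and a threshold of 0.05. A and B passed this filter and C did not. A and B have 1 unstimulated tag each and passed through their stimulated groups, so they could hardly be called in the downward direction, and the number of their calls is no support for a response of the locus. The 9 comparisons below share the same 2 unstimulated libraries. A had at least 5 tags, the filter's minimum count, only in libraries that received CpG, and at most 4 under IFN-γ alone. Its differences of CpG over IFN-γ given further below share this selection and are no support for a response to CpG. B had at least 5 tags only in libraries of IFN-γ at 9 h and of CpG at 9 h or 15 h.

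Against unstimulated cells, A was called higher after 15 h of CpG, and B after 9 h of IFN-γ and after 15 h of CpG. These are groups whose counts let A and B pass the filter, so the calls are no support for a response. For A the change after CpG for 15 h was 3.83 ± 1.12 on the log2 scale (± SE, edgeR adjusted p = 0.0168), with 16 tags against 1 and a ratio of 16.9 (exact 95% counting interval 2.63 to 709). For B it was 3.74 ± 1.14 (adjusted p = 0.0223) with 15 tags against 1, a ratio of 15.9 (2.44 to 668). For B after IFN-γ for 9 h it was 3.50 ± 1.17 (edgeR adjusted p = 0.0211) with 13 tags against 1, a ratio of 12.8 (1.93 to 545). In all 3 cases both stimulated libraries lay above both unstimulated ones. With unstimulated counts of 0 and 1 tags this adds little to the calls, and its share over all tested enhancers was not counted. The width of the intervals comes from the single unstimulated tag. Each of the 3 calls was lost without either unstimulated library, with adjusted p from 0.0548 to 0.239. The call of A was also lost without either CpG 15 h library (0.0710 and 0.0812), that of B at CpG 15 h without replicate 2 (0.159), and that of B at IFN-γ 9 h without replicate 2 (0.128). None of the 3 was called with no filter on low counts, where 11222 enhancers were tested (adjusted p 0.0728 to 0.0837).

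Read against the whole table, A and B were both called after CpG for 15 h, where 7.59% of tested enhancers were called, and 1 of them was called after IFN-γ for 9 h, where 19.4% were. At CpG 15 h, 120 of the tested enhancers had a larger log2 change than A and 123 a larger one than B. At IFN-γ 9 h, 308 had a larger change than B. Of the tested enhancers, 22.3% had as few unstimulated tags as A and B or fewer, so these ranks are mostly against enhancers with a higher baseline. Neither was called after IFN-γ for 3 h or 15 h (10.5% and 15.0% of tested enhancers called), CpG for 3 h or 9 h (1.54% and 6.98%), or both stimuli for 3, 9 or 15 h (27.4%, 22.3% and 25.3%). In these 7 comparisons, 3 of the 14 edgeR tests of A and B had an unadjusted p under 0.05: A after CpG for 9 h (log2 change 3.20 ± 1.21, adjusted p = 0.0843), B after CpG for 9 h (2.75 ± 1.28, adjusted p = 0.177) and A after both for 15 h (2.96 ± 1.24, adjusted p = 0.0613). Limma on log2(RPM + 0.5) called the same changes as edgeR, A and B after CpG for 15 h and B after IFN-γ for 9 h. It also called A after both for 15 h (adjusted p = 0.0301), and neither A nor B after CpG for 9 h. DESeq2 gave no adjusted p for 16 of the 18 tests and called neither of the other 2.

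**Figure D3:**
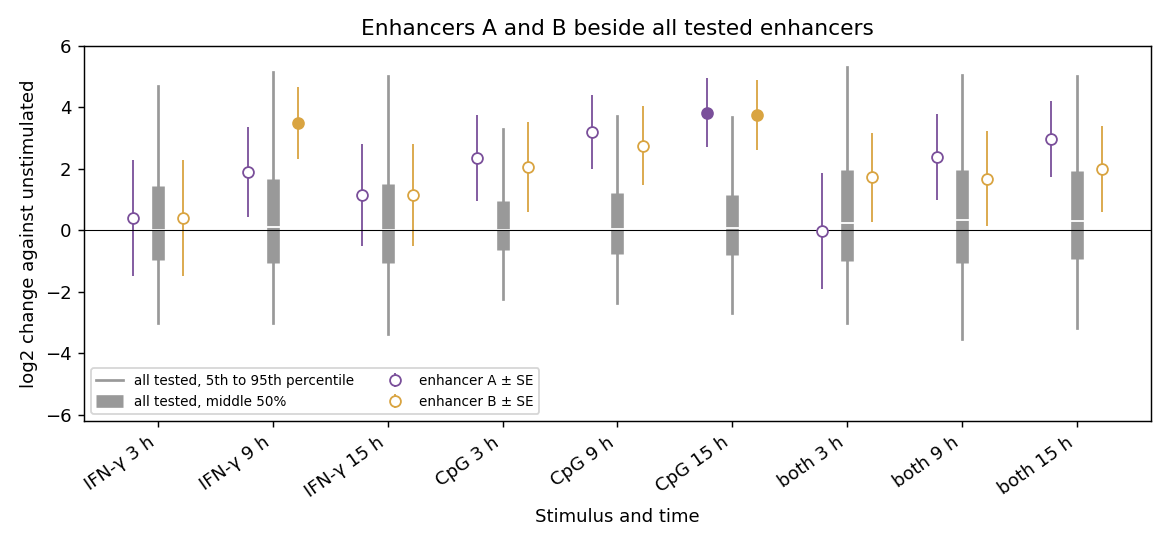
Log2 change against unstimulated cells (y axis) for enhancers A and B with their standard errors, beside the middle 50% (thick grey bar) and the range from the 5th to the 95th percentile (thin grey line) of all 2792 tested enhancers, by stimulus and time (x axis). Filled points are the 3 changes called at an adjusted p under 0.05: A and B after CpG for 15 h, which lie just above the 95th percentile of 3.70, and B after IFN-γ for 9 h.

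C could be tested only without the filter. Its log2 change against unstimulated cells was below 0 in 8 of 9 groups. These 9 comparisons share the same 2 unstimulated libraries, with 5 and 4 tags of C, so they are not separate observations. EdgeR called none of them, and the share of all enhancers called in each without the filter is not given here. Only CpG at 9 h had an unadjusted p under 0.05 (log2 change -2.88 ± 1.26, edgeR adjusted p = 0.405). For that group 1 tag stood against 9, and the unstimulated level was 8.88 times as high (exact 95% counting interval 1.23 to 389). After IFN-γ for 3 h, also with 1 tag, the unstimulated level was 8.66 times as high (1.20 to 380). Averaged over the 3 times, a comparison added after the counts were seen, the log2 change of C was -1.64 ± 0.83 for CpG (unadjusted p = 0.0485, edgeR adjusted p = 0.450) and -1.70 ± 0.82 for both (unadjusted p = 0.0385, edgeR adjusted p = 0.197). The ratios of RPM to unstimulated cells were 0.344 (exact 95% counting interval 0.121 to 0.979) and 0.302 (0.102 to 0.883), and neither change was called. The mean of C was thus lower in most stimulated groups without passing the test.

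Between stimuli at the same time, A and B were called in none of 18 tests with edgeR, with 3 at an unadjusted p under 0.05. The largest differences were those of CpG over IFN-γ at 15 h. For A it was 2.68 ± 1.02 on the log2 scale (edgeR adjusted p = 0.0506) with 16 tags against 2, a ratio of 8.25 (exact 95% counting interval 1.94 to 73.9). For B it was 2.59 ± 1.04 (adjusted p = 0.0614) with 15 tags against 2, a ratio of 7.73 (1.80 to 69.7). Both libraries under CpG lay above both under IFN-γ in each case, and the share of all tested enhancers separated in this way was not counted. These 2 values sit at the threshold: scaled to whole-library totals they were called (edgeR adjusted p 0.0397 and 0.0481), as they were by limma on log2(RPM + 0.5) (0.0047 and 0.0064). With whole-library totals the median log2 difference of all tested enhancers in this comparison was 0.255, against 0.0247 with TMM factors. RPM is scaled to whole libraries too, so limma is no separate check of the scale. The third was B at 15 h, lower with both stimuli than with CpG alone (5 against 15 tags, log2 difference -1.74 ± 0.85, edgeR adjusted p = 0.231). DESeq2 gave 16 of these 18 tests no adjusted p and called neither of the others.

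The share of the table called for CpG against IFN-γ was 10.3%, 21.9% and 17.4% at 3, 9 and 15 h. For both stimuli against IFN-γ it was 1.29%, 6.45% and 9.17%, and for both against CpG 16.8%, 6.55% and 5.05%. In these comparisons of the combination, the log2 differences of A and B ran from -2.39 ± 1.40 (A, both against CpG at 3 h, 1 tag against 5) to 1.81 ± 1.12 (A, both against IFN-γ at 15 h, 10 tags against 2). Against CpG alone the fitted difference was below 0 for A and B at each of the 3 times, though that of B at 3 h and that of A at 9 h turned when 1 library was left out. B at 9 h had 3 tags with both stimuli, 13 with IFN-γ and 8 with CpG, and its difference from IFN-γ alone was -1.82 ± 0.98 (edgeR adjusted p = 0.266).

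C, tested with no filter, was called in 1 of 9 comparisons between stimuli, with 2 at an unadjusted p under 0.05: it was lower after CpG than after IFN-γ at 9 h. The counts were 0 and 1 tags against 4 and 11, the log2 difference was -3.66 ± 1.14 (edgeR adjusted p = 0.0436, 3.40% of 11222 enhancers called), and the IFN-γ level was 14.6 times as high (exact 95% counting interval 2.25 to 615). In checks added after the counts were seen, the call was lost with whole-library totals (adjusted p = 0.0717), with the replicate block (0.0552) and without IFN-γ replicate 2 (0.572) or either CpG library (0.158 and 0.379). Leaving out 1 of the 4 libraries moved the log2 difference between -5.88 and -2.84. The other one was both stimuli against IFN-γ at 9 h, with 2 tags against 15 and a log2 difference of -2.55 ± 1.03 (edgeR adjusted p = 0.357). B, its neighbour at 1252 bases, had 8 tags after CpG and 13 after IFN-γ at that time, a log2 difference of -0.75 ± 0.80 (edgeR adjusted p = 0.531).

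Between 3 h and 15 h of the same stimulus, A and B were called in none of 6 edgeR tests, with 1 at an unadjusted p under 0.05. The shares called in the table were 1.04% for IFN-γ, 0.645% for CpG and 9.28% for both. A with both stimuli had 1 tag at 3 h and 10 at 15 h, a log2 difference of 2.99 ± 1.23 (edgeR adjusted p = 0.10) and a ratio of 10.4 (exact 95% counting interval 1.48 to 450). Under CpG, A had 5 and 16 tags (1.47 ± 0.85, adjusted p = 0.492) and B 4 and 15 (1.69 ± 0.90, adjusted p = 0.450). All 6 fitted differences were above 0, and those of both enhancers under IFN-γ and of B with both stimuli turned when 1 library was left out. By limma on log2(RPM + 0.5), A with both stimuli was called (adjusted p = 0.0467), and DESeq2, which gave 2 of the 6 tests no adjusted p, called none of the others.

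Averaging the 3 times of each stimulus raises the number of tags per comparison, and was added after the counts were seen. A was then higher under CpG than under IFN-γ, with 32 tags against 7 and a log2 difference of 1.98 ± 0.68 (edgeR adjusted p = 0.0113, 42.6% of tested enhancers called). The ratio was 4.65 (exact 95% counting interval 2.01 to 12.5), and 406 tested enhancers had a larger difference. A had passed the filter through libraries that received CpG, so this call shares that selection. This call was lost with DESeq2 (adjusted p = 0.10) and without 1 of 4 libraries: IFN-γ 3 h replicate 1 (0.0627), CpG 3 h replicate 1 (0.188), IFN-γ 9 h replicate 2 (0.0527) or CpG 9 h replicate 1 (0.0622). Under the same selection, A was also called higher under CpG than in unstimulated cells (3.13 ± 1.09, edgeR adjusted p = 0.0467, 9.24% called). B was not called (2.85 ± 1.13, edgeR adjusted p = 0.0894). The rise of A was lost with whole-library totals (adjusted p = 0.0739), with no filter (0.164), with the replicate block (0.0566), and without either unstimulated library or any of 4 CpG libraries (0.0609 to 0.366). Those 4 were replicate 1 at 3 h, replicate 1 at 9 h and both at 15 h.

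The other averaged comparisons called neither A nor B. They were IFN-γ against unstimulated cells (23.7% of tested enhancers called), both against unstimulated cells (33.0%), both against IFN-γ (21.4%) and both against CpG (30.1%), and 1 of these 8 edgeR tests had an unadjusted p under 0.05. That one was A with both stimuli against CpG alone, 16 tags against 32, a log2 difference of -1.36 ± 0.61 (edgeR adjusted p = 0.0750). Limma on log2(RPM + 2) called it and the same comparison of B. DESeq2 gave an adjusted p of 0.278 for A.

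Whether the combination equals the sum of the single log2 responses was also tested, as a comparison added after the counts were seen. The departure was below 0 for A and B at each time and averaged over times, with a turned sign without 1 library for A at 9 h and for B at 3 h and 15 h, and edgeR called none of these 8 tests (1 at an unadjusted p under 0.05; DESeq2 and limma called none). That one was B at 9 h, -4.57 ± 1.62 (edgeR adjusted p = 0.333), which rests on 1 unstimulated tag and 3 tags with both stimuli. In the whole table the departure was called for 0.0358%, 0.00% and 0.107% of tested enhancers at 3, 9 and 15 h and for 0.0716% averaged over times, so the test called almost nothing anywhere.

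Enhancers with a pattern most like A or B were sought among 689 others with a mean of at least 5 tags, by Pearson correlation of log2(RPM + 0.5) over the 20 libraries, as a description. The r values given are the highest of 689, so their height is in part due to the search. The pattern closest to A was that of chr11:96713520-96713807 (r = 0.83), which had 0.148 RPM in unstimulated cells, 0.113 RPM after IFN-γ for 15 h, 2.60 RPM after CpG for 15 h and 2.42 RPM after both for 15 h. Next came chr11:98599215-98599887 (r = 0.83), with 0.0744, 0.151, 1.13 and 0.986 RPM in the same groups. In both, cells with both stimuli at 15 h read nearly as high as with CpG alone, whereas the mean of A was 0.381 against 0.621 RPM (10 against 16 tags). This contrast was not tested. The patterns closest to B were those of chr5:113786922-113787248 (r = 0.72) and chr5:113782376-113782897 (r = 0.66), near each other on chromosome 5. They had 0.507 and 0.796 RPM after IFN-γ for 9 h and 0.931 and 1.01 RPM after CpG for 15 h, from 0.222 RPM each in unstimulated cells. After IFN-γ for 15 h they had 0.527 and 0.339 RPM, against 0.0756 RPM for B, and after both for 15 h 0.572 and 0.533 RPM, against 0.191 RPM for B.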

How the data were processed

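The 20 nAnT-iCAGE libraries were grouped by the titles and characteristics of the labels. The authors deposited raw tag counts per enhancer and a table of the same enhancers in RPM of the whole library (unit judged from the values, since each count divided by its value gave 1 total per library). Reads were handled with HISAT2 2.1.0, BWA 0.7.10, Trimmomatic 0.38 and FastQC 0.11.5 on mm39, per the submitters' processing notes. The enhancer caller is not given in the sources used here, nor whether starts count from 0 or 1; positions are printed as deposited.

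Counts were tested with edgeR 4.0.16 in R 4.3.3 (quasi-likelihood F-test, robust, two-sided, TMM factors, 1 coefficient per group, 10 residual degrees of freedom). Enhancers were kept by filterByExpr (minimum count 5, minimum total 15), which left 2792, and p-values were adjusted over these by Benjamini-Hochberg. The standard error of a log2 change is its size over the square root of F. Alternatives were RLE factors, whole-library totals, DESeq2 1.42.0, no filter, a stricter filter (10 and 30), the replicate block, limma 3.58.1 on log2(RPM + 0.5, 0.1 or 2), fits restricted to the compared groups, and leaving out each library with the tested enhancers kept the same. Ratios of RPM carry exact conditional 95% intervals and shares Clopper-Pearson intervals. Against unstimulated cells, tested enhancers had a median log2 change of 0.00 to 0.32, and of -0.30 to 0.40 with whole-library totals; values were not corrected for it.

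The windows, members and comparisons were chosen with earlier results of these data known. Every member with enough tags was named with its baseline, called members were given in full, and the 2 enhancers most like the member with most tags were named; A and B tied, so both were used. A planned list of other alternative activation genes and marker checks needed gene positions on mm39 and were not analysed here, and coordinates were not converted between builds.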

Additional observations from a re-analysis of the deposited data

How the results depend on the processing

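None of the 6 called changes reversed its direction under the alternatives that gave it a value. Some changes that were not called did: A after both for 3 h (log2 change -0.03) was 0.02 with RLE factors and with DESeq2, B with both against IFN-γ averaged over times (0.12) was -0.04 and -0.02 with limma at 0.5 and 2, and others turned when 1 library was left out. The 3 calls against unstimulated cells stayed 3 with RLE factors, whole-library totals and the replicate block, were 4 with each limma pseudocount, 0 with no filter, and 0 to 4 when 1 library was left out (the fourth being A after both for 15 h, called without IFN-γ 3 h replicate 1, both 3 h replicate 1 or CpG 9 h replicate 2). Between stimuli at the same time, 0 became 2 with whole-library totals and with limma at pseudocounts 0.5, 0.1 and 2, 1 with no filter (enhancer C), and 0 to 1 with 1 library left out (A, CpG over IFN-γ at 15 h, called without replicate 2 of IFN-γ 3 h, both 3 h or IFN-γ 9 h). For 15 h against 3 h, 0 became 1 with limma at 0.5 and stayed 0 without any 1 library. Averaged over times, 2 calls became 1 with whole-library totals, 1 with no filter and 5 with limma at 2, and 0 to 3 with 1 library left out (the third being A, lower with both than with CpG, without CpG 3 h replicate 2). With the replicate block, that count was 1, and no other count moved; enhancer C at 9 h lost its call (adjusted p = 0.0552). Replicate differences of 2 groups correlated at -0.05 to 0.04 over 45 pairs of groups, which shows no pairing of samples by replicate number. Replicates differed little beyond counting error (chi-square per degree of freedom 1.10 to 1.28), so this check could hardly show a pairing and does not exclude one. The block stands for a shared number only. Departures from additivity stayed at 0 in all alternatives that gave them an adjusted p. Leaving out 1 library, the log2 change of C (CpG against IFN-γ at 9 h, no filter) ran from -5.88 without CpG replicate 2 to -2.84 without CpG replicate 1. At CpG 15 h it ran from 2.94 to 6.01 for A and 2.85 to 5.92 for B, and at IFN-γ 9 h from 2.61 to 5.68 for B. The upper ends for A and B were without unstimulated replicate 2, which leaves 0 unstimulated tags and a value set by the prior count. For A averaged over times the log2 change ran from 1.56 to 3.34 for CpG over IFN-γ, highest without IFN-γ 9 h replicate 1, and from 2.26 to 5.31 for CpG over unstimulated cells, highest without unstimulated replicate 2. Log2 ratios of the locus sums to unstimulated cells, leaving out 1 of the 4 libraries, ran from 1.64 to 1.95 for CpG at 15 h, 1.22 to 1.77 for IFN-γ at 9 h and -2.42 to -1.39 for IFN-γ at 3 h, while CpG at 3 h (-0.82 to 0.73) and both at 9 h (-0.82 to 0.39) crossed 0. The stricter filter tested neither A nor B, DESeq2 left most of their adjusted p-values empty, and fits of the compared groups alone did not keep both enhancers in every comparison, so no count is given for these. The cause of these shifts was not tested, except that testing without the filter adjusts over more enhancers. Limits are the depth, with 1 unstimulated tag each in A and B, the 2 libraries per group, and unstimulated cells at 0 h only.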
